A study of Homo sapiens with 4 samples.

Results

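Tetracycline-induced TR15_MeTA5 cells were compared with tetracycline-induced TR9_MeTA14 cells, array against array, using 2 of the 4 arrays of the study. Both lines came from LNCaP, an androgen-sensitive human prostate cancer cell line. They were made in 2 steps. A Tet repressor vector, pcDNA6/TR, gave the parental lines TR9 and TR15, and each of these then received pcDNA4/TO/NFκB (AD)-MBD with a FLAG tag. Every group therefore carried the Tet repressor and the fusion gene, and the induced groups were grown with tetracycline for 4 days. Each group was 1 sample of 1 stable line on 1 array, so the line and its single sample cannot be told apart, and no array of tetracycline-treated TR9 or TR15 without the fusion gene was used here. With 1 array a side there was no test, and every difference below compares those 2 arrays, not the lines as populations of cultures.

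The fusion protein is the tool of methyl-CpG targeted transcriptional activation (MeTA). Its methyl-CpG binding domain (MBD) recognises methylated CpG sites, which are dense in the silenced promoters of many cancer genes, and its NFκB activation domain (AD) recruits the transcription machinery there. Tetracycline releases the Tet repressor and switches the fusion gene on. The comparison of the induced lines asks which genes differed when independently derived lines of one parental cell type held the same induced activator.

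Total RNA was hybridised in 1 colour to oligonucleotide arrays, all on 1 slide. A level is given below as a scaled signal, the processed spot intensity divided by the 75th percentile of its array and multiplied by 1000, so a ratio of scaled signals is a fold. Of 34127 probes, 24217 were well above background in induced TR9_MeTA14 and 21606 in induced TR15_MeTA5. The number of probes so detected was 21923 and 20563 in TR9_MeTA14 and TR15_MeTA5 without tetracycline. The 75th percentile itself was 777 intensity units in induced TR9_MeTA14 and 542 in induced TR15_MeTA5, a factor of 1.43 that the scaling removed. The only replicate error in the data was that between spots of one probe on one array, an SD of 0.09 on a log2 ratio, which covers printing and scanning and not culture, RNA or labelling. A gene well above background on 1 array only has a bound, written as "at least", with the dim array set at its own signal or its lowest detected signal, whichever was higher (17.9 scaled units in induced TR9_MeTA14 and 35.5 in induced TR15_MeTA5).

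The label of both lines was checked against prostate luminal genes. Of 29 such genes, 27 were compared between the induced arrays, and those at the top of the list were bright on both: KLK3, the gene of prostate-specific antigen, read 60545 in induced TR9_MeTA14 and 227749 in induced TR15_MeTA5, and HOXB13, a homeobox gene of prostate epithelium, read 11348 and 30334. TGM4 was not well above background on either, and PCA3 was so in induced TR9_MeTA14 only, with no fold. Some markers of other cells were not detected: KRT5, KRT14, KRT17 and KRT6A of basal cells, COL1A2, COL3A1, DCN and LUM of stromal cells, and MS4A1 and GNLY of immune cells were not well above background on either induced array. Other markers of the same lists were detected on both, among them ITGB4 and KRT15 of basal cells, VIM and COL1A1 of stromal cells, and PTPRC, CD4 and CD79A of immune cells. Of the markers on the array, 6 of 13 basal, 11 of 21 stromal and 14 of 16 immune ones were above background in induced TR9_MeTA14, and 7, 12 and 11 of them in induced TR15_MeTA5, and their part in the results was not tested.

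The stretches of promoter that the results refer to are printed first. Each is the 150 bases that end just before a RefSeq transcription start (assembly GRCh38.p14), read 5′ to 3′ along the strand of the gene, so each is upstream sequence and not exon. The motifs searched, on both strands, were GTTGCC (the core bound by RFX factors, which drive cilia genes), TTTGAA (the CHR element of mitotic genes), CCAAT, TTTNNCGC (a core of E2F sites in replication genes) and the kappaB site. They were chosen after the expression values had been seen. A match is a description of letters and no evidence of binding. The cilia, mitosis, replication and NFκB target genes printed were picked because their stretch held a match. Genes with larger differences but no match were passed over, so the matches shown are no finding.

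Genes of motile cilia, far brighter in induced TR9_MeTA14, are shown with GTTGCC or its reverse complement in capitals. DCDC2B lies at chr1:32208939-32209088 on the plus strand and DYNLT4 at chr1:44807352-44807501 on the minus strand.
DCDC2B: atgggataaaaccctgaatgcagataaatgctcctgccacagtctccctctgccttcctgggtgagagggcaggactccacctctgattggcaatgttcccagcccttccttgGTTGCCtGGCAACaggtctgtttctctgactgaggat
DYNLT4: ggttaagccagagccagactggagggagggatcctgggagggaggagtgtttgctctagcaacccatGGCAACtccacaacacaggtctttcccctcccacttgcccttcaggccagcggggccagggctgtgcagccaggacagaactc

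Genes of mitosis, brighter in induced TR15_MeTA5, are shown with TTTGAA and, where present, CCAAT or their reverse complements in capitals. ANLN lies at chr7:36389712-36389861 on the plus strand and HMMR at chr5:163460482-163460631 on the plus strand.
ANLN: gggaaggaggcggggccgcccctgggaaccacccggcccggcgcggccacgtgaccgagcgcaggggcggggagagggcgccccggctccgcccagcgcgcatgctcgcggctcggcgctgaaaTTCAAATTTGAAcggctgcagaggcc
HMMR: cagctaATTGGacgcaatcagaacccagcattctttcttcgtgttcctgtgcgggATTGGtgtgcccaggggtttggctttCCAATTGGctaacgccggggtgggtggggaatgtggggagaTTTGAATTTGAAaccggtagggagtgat

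Genes of DNA replication, also brighter in induced TR15_MeTA5, are shown with the E2F core in capitals. E2F1 lies at chr20:33686386-33686535 on the minus strand and TYMS at chr18:657503-657652 on the plus strand.
E2F1: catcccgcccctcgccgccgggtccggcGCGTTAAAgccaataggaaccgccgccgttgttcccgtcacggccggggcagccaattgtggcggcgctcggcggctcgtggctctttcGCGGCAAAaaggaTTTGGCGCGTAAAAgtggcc
TYMS: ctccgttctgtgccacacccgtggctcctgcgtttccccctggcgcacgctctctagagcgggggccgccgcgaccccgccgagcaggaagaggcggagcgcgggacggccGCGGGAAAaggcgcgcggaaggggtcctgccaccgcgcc

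Targets of NFκB, whose activation domain the fusion protein holds, are shown with the kappaB site in capitals. NFKBIA lies at chr14:35404750-35404899 on the minus strand and CXCL6 at chr4:73836528-73836677 on the plus strand.
NFKBIA: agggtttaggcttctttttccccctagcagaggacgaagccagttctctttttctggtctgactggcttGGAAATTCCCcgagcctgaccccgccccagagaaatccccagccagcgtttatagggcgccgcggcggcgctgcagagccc
CXCL6: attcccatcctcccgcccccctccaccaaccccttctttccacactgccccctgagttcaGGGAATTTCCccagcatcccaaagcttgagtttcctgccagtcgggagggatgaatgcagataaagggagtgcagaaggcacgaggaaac

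The last set shows where an MBD could find CpG sites, with each CG in capitals, in 2 genes the study chose (PYCARD and TNFRSF25) and in 2 genes of the largest differences between the lines (UGT2B15 and UGT2B11). PYCARD lies at chr16:31202761-31202910, TNFRSF25 at chr1:6466174-6466323, UGT2B15 at chr4:68670653-68670802 and UGT2B11 at chr4:69214749-69214898, all on the minus strand. These stretches hold 9, 19, 0 and 1 CpG sites in that order. Whether the sites were methylated in these cultures was not measured by the arrays. By bisulfite sequencing of regions that overlap the PYCARD and TNFRSF25 stretches, the paper reported both promoters hypermethylated in both lines, with and without tetracycline. The sequenced regions held only the part of each stretch nearest the start, and most of the printed PYCARD sites lay outside them.
PYCARD: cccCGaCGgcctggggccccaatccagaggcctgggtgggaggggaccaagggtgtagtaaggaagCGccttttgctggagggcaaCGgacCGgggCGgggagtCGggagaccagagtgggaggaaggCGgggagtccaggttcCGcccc
TNFRSF25: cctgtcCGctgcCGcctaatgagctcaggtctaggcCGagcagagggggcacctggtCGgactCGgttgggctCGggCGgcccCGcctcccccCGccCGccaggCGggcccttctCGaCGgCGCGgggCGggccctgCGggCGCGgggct
UGT2B15: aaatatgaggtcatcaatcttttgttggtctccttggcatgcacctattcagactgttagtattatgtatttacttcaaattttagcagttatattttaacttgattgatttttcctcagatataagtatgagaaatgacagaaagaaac
UGT2B11: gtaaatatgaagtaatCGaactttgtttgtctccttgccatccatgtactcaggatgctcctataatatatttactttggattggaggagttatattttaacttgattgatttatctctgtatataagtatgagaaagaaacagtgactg

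Between the induced lines, cell division, androgen-response and ribosomal protein genes were higher in TR15_MeTA5, and motile cilia genes and UGT2B enzymes were higher in TR9_MeTA14. Of 14611 genes compared, 2078 (14.2%) were at least 2-fold higher in induced TR15_MeTA5 and 1515 (10.4%) were at least 2-fold lower. A difference of at least 10-fold was found for 84 genes in the first direction and 56 in the other. For the remaining 75.4% the difference or bound was under 2-fold, and a bound leaves the full size of a difference open. The median log2 difference over all genes was 0.07. The comparison had 13738 genes above background on both arrays, 279 detected in induced TR15_MeTA5 only and 594 detected in induced TR9_MeTA14 only.

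The number of genes in each direction depended on how the arrays were scaled. Of the genes past 2-fold, 57.8% were higher in TR15_MeTA5. That share was 12.3% when the arrays were set equal on spike-in control RNAs, which moved the median of all genes to -0.69, and 45.9% with another background correction and quantile normalization. It was 69.7% when probes near background were kept. The spike-in scaling rested on 8 control probes well above background on all 4 arrays. Their unscaled log2 differences between the induced arrays ran from 0.02 to 0.39, with a median of 0.27. Spike-in scaling lowered each log2 difference between the induced arrays by 0.79, so a gene at 1 to 1.79 in the text fell within 2-fold under it and a gene at -0.21 to -1 passed 2-fold toward TR9_MeTA14. Over all genes it left 4.79% at least 2-fold higher in TR15_MeTA5 and 34.1% lower. Of the 33 lists with more genes higher than lower as scaled here, 22 had more lower than higher with it, so both counts are given for the lists, and each is to be read against the share over all genes under the same scaling.

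**Figure D1:**
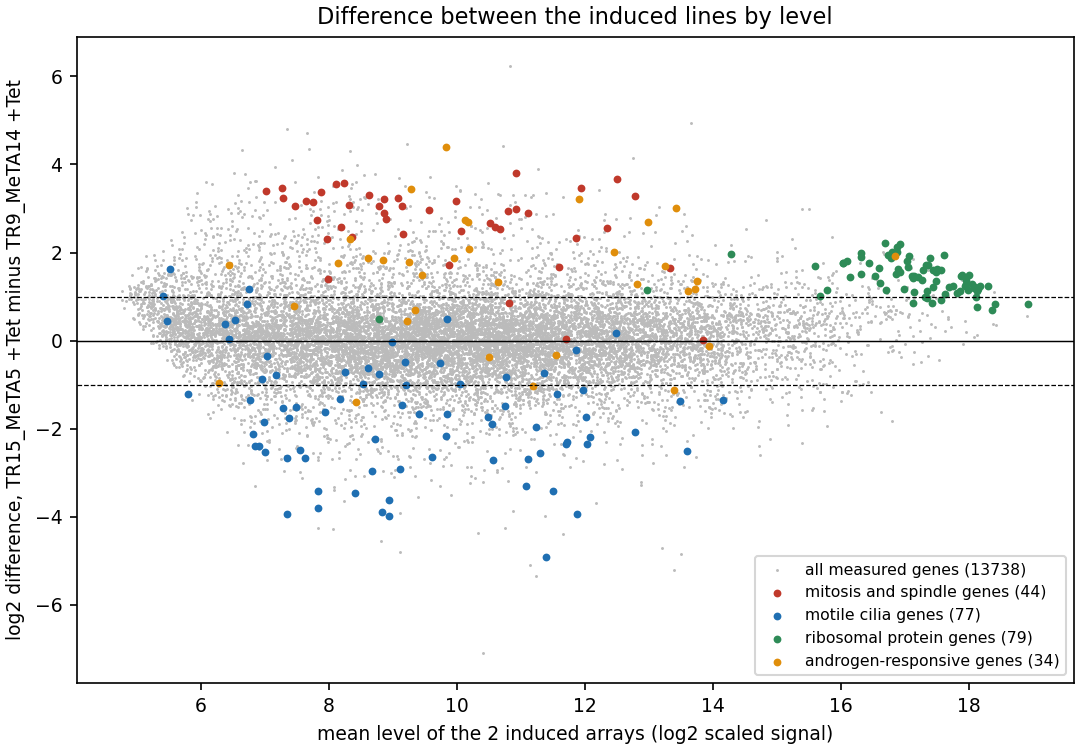
Each point is 1 gene above background on both induced arrays, plotted by its mean log2 scaled signal (x axis) and the log2 difference TR15_MeTA5 minus TR9_MeTA14 (y axis), with gene lists in colour. Most mitosis genes sit above the cloud (median 2.95 over the 44 plotted), and most motile cilia genes sit below it (median -1.68 over the 77 plotted).

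Genes that drive chromosome segregation were higher in induced TR15_MeTA5. Of 47 mitosis and spindle genes compared, 44 were at least 2-fold higher and 0 were lower, with a median log2 difference of 2.94. The median over all genes was 0.07, and without tetracycline the same list differed by a median of 0.92. Under the alternatives that kept the 2-fold cut-off, 39 to 45 of these genes were higher and 0 lower.

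NDC80, a kinetochore protein that holds microtubules, read 4529 without and 516 with tetracycline in TR9_MeTA14, and 14061 without and 7245 with it in TR15_MeTA5, a 14-fold difference between the induced arrays. BIRC5, or survivin, a subunit of the chromosomal passenger complex, read 11222, 1623, 30377 and 20542 in the same order, a 12.7-fold difference. NUF2, the partner of NDC80, read 1170, 87.3, 2150 and 1048, and differed 12-fold. In all of these, induced TR9_MeTA14 was the lowest of the 4 arrays and untreated TR15_MeTA5 the highest.

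ANLN, a scaffold of the contractile ring, was not well above background in induced TR9_MeTA14 (17.8) and read 319 in induced TR15_MeTA5, at least 17.8-fold higher. It read 301 and 573 in the untreated lines. DLGAP5 and HMMR, which organise spindle microtubules, differed 9.41-fold and 9.02-fold. FOXM1, the transcription factor of the G2 and M phases, differed 7.76-fold, at 273 against 2116. CDK1, the kinase that starts mitosis, differed 7.44-fold (807 against 6009), and MKI67, the gene of the Ki-67 antigen, 4.93-fold (113 against 559).

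The mitosis genes within 2-fold were BUB3 (0.86 log2), CDC25B (0.03) and CENPM (0.00). Promoter sequence was found in RefSeq for 40 of the 48 mitosis genes listed. TTTGAA occurred within the 300 bases around the start in 29 of them (72.5%), against 18.2% of 27305 genes in the table, and CCAAT in 32 (80%), against 39.7%.

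DNA replication genes differed in the same direction. Of 49 compared, 38 were at least 2-fold higher in induced TR15_MeTA5 and 0 lower, with a median of 1.69. Without tetracycline 23 were higher in TR15_MeTA5, with a median of 1.0. With spike-in scaling the count of higher genes between the induced lines was 21, with 1 lower.

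E2F1, a transcription factor of S-phase entry, read 718 and 102 in TR9_MeTA14 without and with tetracycline and 2217 and 1381 in TR15_MeTA5, a 13.5-fold difference between the induced arrays. TYMS, thymidylate synthase, read 9853, 1453, 23187 and 15630, a 10.8-fold difference. MCM10, which helps to fire replication origins, was not well above background in induced TR9_MeTA14 (16) and was at least 15.1-fold higher in induced TR15_MeTA5 (270). Again the induced TR9_MeTA14 array held the lowest of the 4 values for each gene.

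E2F2 differed 8.08-fold, MCM7 of the replicative helicase by 2.53 log2, and PCNA, the sliding clamp, by 1.98 log2. The lowest value of the list was POLE at -0.58. The E2F core occurred in the promoter windows of 25 of 41 replication genes (61.0%), against 8.2% of all genes in the table. CCAAT occurred in 24 of them (58.5%).

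Androgen-responsive genes were also higher in induced TR15_MeTA5. LNCaP cells are androgen-sensitive, and the hormone turns on secretory genes of the luminal prostate. Of 37 androgen-responsive genes compared, 26 were at least 2-fold higher and 3 lower, with a median of 1.68, against 0.35 without tetracycline. With spike-in scaling the count was 14 higher and 6 lower, with a median of 0.90.

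KLK3 read 233273 without and 60545 with tetracycline in TR9_MeTA14, and 369173 without and 227749 with it in TR15_MeTA5, a 3.76-fold difference with tetracycline. KLK2, a neighbouring kallikrein protease gene, read 20068, 1252, 23032 and 11660, a 9.31-fold difference. For both genes both untreated arrays lay above both induced arrays, and induced TR9_MeTA14 lay lowest.

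FKBP5, a co-chaperone, differed 10.9-fold (188 against 2052), and SLC45A3, or prostein, 8.02-fold (3888 against 31196). MAF, a transcription factor, was set apart by its pattern. It read 207 and 199 in TR9_MeTA14 without and with tetracycline, and 6424 and 4181 in TR15_MeTA5, so the lines differed by 4.95 log2 without tetracycline and 4.4 with it. The androgen-responsive genes at least 2-fold lower in induced TR15_MeTA5 were TPD52 (-1.39 log2), UAP1 (-1.11) and IDI1 (-1.04).

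Among the luminal identity genes, 14 of 27 were at least 2-fold higher in induced TR15_MeTA5 and 1 lower, with a median of 1.01, against -0.11 without tetracycline. With spike-in scaling 11 of 28 were higher and 4 lower, with a median of 0.03, and HOXB13 fell within 2-fold. Beside genes already given, EPCAM, an epithelial adhesion molecule, read 18353 and 2143 in TR9_MeTA14 and 15767 and 11902 in TR15_MeTA5, and TMPRSS2, an androgen-regulated protease, differed by 2.01 log2. HOXB13 differed by 1.42. FOXA1, a pioneer factor that opens chromatin, read 12333 and 11760, a log2 difference of -0.07. The gene at least 2-fold lower was ELF3, an epithelial transcription factor (-1.15). In RNA of whole cultures, fewer cells that express a gene and less of its RNA per cell cannot be told apart.

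**Figure D2:**
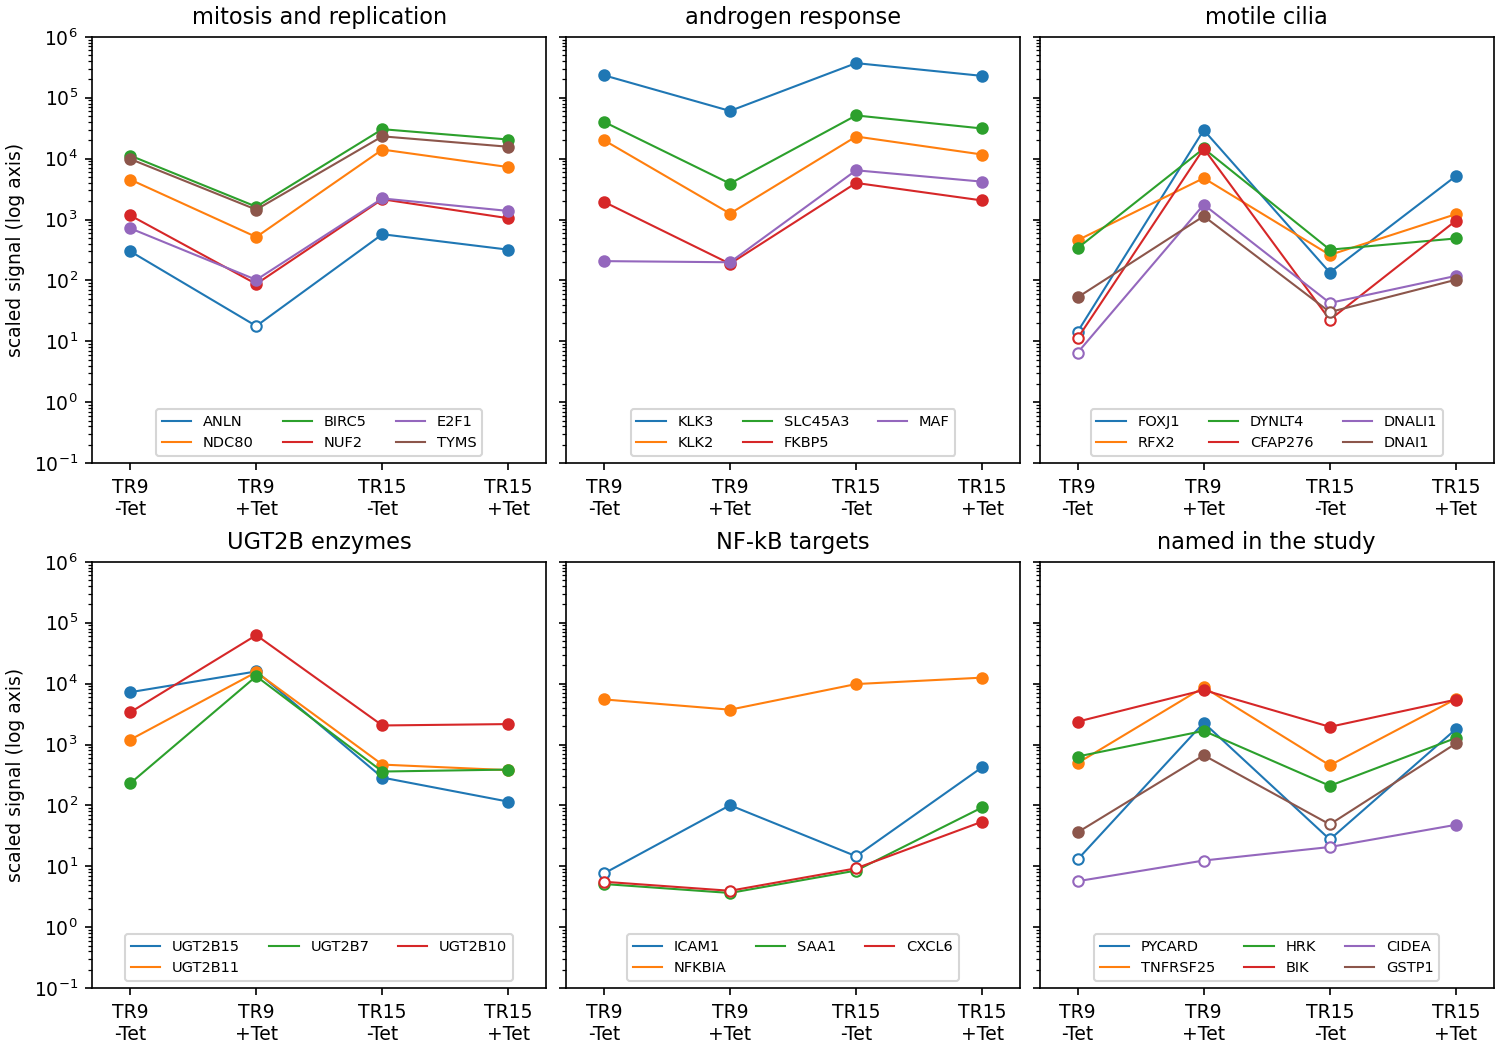
Scaled signal (log axis) of named genes on the 4 arrays, with TR9 and TR15 standing for TR9_MeTA14 and TR15_MeTA5, filled points well above background and open points not; the lines join values of 1 gene and do not stand for a series. Mitosis, replication and androgen-response genes are lowest in induced TR9_MeTA14, cilia and UGT2B genes are highest there, and PYCARD is close between the induced arrays (2278 and 1791).

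Ribosomal protein genes were shifted as a block. Of 79 compared, 68 were at least 2-fold higher in induced TR15_MeTA5 and 0 lower, with a median of 1.44 (0.57 without tetracycline). RPS3A, a small-subunit protein, read 48720 and 227672 in the induced lines, a 4.67-fold difference. RPSA differed by 2.2 log2, RPL29 by 2.12 and RPS15A by 2.02. Ribosomal protein genes have many processed pseudogenes, and how far their probes read these was not tested. The count depended on scaling: 21 genes were at least 2-fold higher with quantile normalization and 15 with spike-in scaling, with 0 lower in either, and the median was 0.65 in both.

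Control genes, which serve as references because most cells express them, were not level. ACTB, cytoskeletal actin, read 131287 in induced TR9_MeTA14 and 257440 in induced TR15_MeTA5, a log2 difference of 0.97 that was 0.10 with quantile normalization. B2M, the light chain of class I antigen-presenting molecules, differed by 1.08. GAPDH, a glycolytic enzyme, differed by 1.21, or 0.40 with quantile normalization. Of 14 control genes, 5 were at least 2-fold higher and 0 lower, led by HPRT1 (2.24), with TFRC and RPLP0 both at 1.49. With spike-in scaling 1 was at least 2-fold higher. TBP (0.04), SDHA (-0.09) and YWHAZ (-0.20) were near 0.

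Genes of motile cilia were higher in induced TR9_MeTA14. Motile cilia beat by dynein arms on a microtubule axoneme, and their genes are switched on in multiciliated cells by FOXJ1 and the RFX factors. The list of 127 genes was drawn up after the values had been seen, because such genes filled the top of the ranking, so its counts are a description and no support. Of 95 compared, 70 were at least 2-fold lower in induced TR15_MeTA5 and 3 higher, with a median of -1.90. Without tetracycline 63 could be compared, of which 9 were higher in TR15_MeTA5 and 1 lower, with a median of 0.22. The number of these genes well above background was 101 in induced TR9_MeTA14 and 77 in induced TR15_MeTA5, against 63 and 58 without tetracycline. Over all 34127 probes, the numbers were 24217 and 21606 with tetracycline and 21923 and 20563 without it. Among the 77 cilia genes above background on both induced arrays, 53 were at least 2-fold lower in TR15_MeTA5 and 3 higher. Under that filter 1318 of all 13738 genes were lower and 1799 higher.

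FOXJ1, the forkhead factor of motile ciliogenesis, was not well above background in TR9_MeTA14 without tetracycline (14.4) and read 29354 with it. In TR15_MeTA5 it read 135 without and 5174 with tetracycline. The induced lines thus differed 5.67-fold, with TR9_MeTA14 higher, while untreated TR15_MeTA5 lay above untreated TR9_MeTA14. RFX2, a partner of FOXJ1, read 457 and 4782 in TR9_MeTA14 and 262 and 1224 in TR15_MeTA5, a 3.91-fold difference with tetracycline. RFX3 differed by -1.86 log2 and RFX1 by -0.45.

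Among structural genes, DYNLT4, a dynein light chain, read 339, 14654, 320 and 488 in TR9_MeTA14 without and with tetracycline and TR15_MeTA5 without and with it. Its difference between the induced arrays was 30.0-fold. DNAI1, an outer-arm intermediate chain, read 1135 and 103 with tetracycline, an 11.1-fold difference. DNAH5, an outer-arm heavy chain, read 1939 and 123, a 15.7-fold difference. Each of these genes was far brighter in induced TR9_MeTA14 than on any other array.

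CFAP276 and DNALI1 were detected with tetracycline only, in both lines. CFAP276, a cilia-associated protein, read 14619 and 958 in the induced lines, a 15.3-fold difference. DNALI1, an inner-arm light intermediate chain, read 1754 and 119, a 14.8-fold difference. DCDC2B, a doublecortin-domain gene, was detected in induced TR9_MeTA14 only (1265), at least 35.7-fold higher there, and DNAH6, another dynein heavy chain, was at least 13.4-fold higher.

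Cilia genes near the middle of the list were ODAD3 (-0.74 log2) and CCNO (-0.02), and those at least 2-fold higher in induced TR15_MeTA5 were SPAG17 (1.63), CFAP53 (1.18) and CFAP100 (1.02). With spike-in scaling the last group was empty and 83 of 101 cilia genes were at least 2-fold lower in TR15_MeTA5. Promoter windows were found for 103 of the 127 genes, and GTTGCC occurred in 51 of them (49.5%), against 14.6% of all genes in the table. Whether any cilium formed was not measured.

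The largest measured difference between the induced arrays was in the UGT2B family, enzymes that attach glucuronic acid to steroids, androgens among them, and so inactivate them. This list too was drawn up after the values were seen: all 4 genes compared were at least 2-fold lower in induced TR15_MeTA5, with a median of -5.22, and without tetracycline their median was -1.04. UGT2B15 read 7221 and 15841 in TR9_MeTA14 without and with tetracycline, and 286 and 115 in TR15_MeTA5, a 137-fold difference between the induced arrays. UGT2B11 read 1197, 15405, 468 and 379 in that order, a 40.6-fold difference.

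UGT2B10 read 3376, 62367, 2054 and 2163, a 28.8-fold difference, and UGT2B7 read 230, 13194, 360 and 388, a 34-fold difference. Induced TR9_MeTA14 was the highest of the 4 arrays for every member, and in TR15_MeTA5 the levels with and without tetracycline were close except for UGT2B15. Members of this family are alike in sequence, so a probe may read more than 1 of them, and the members are not independent observations.

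**Figure D3:**
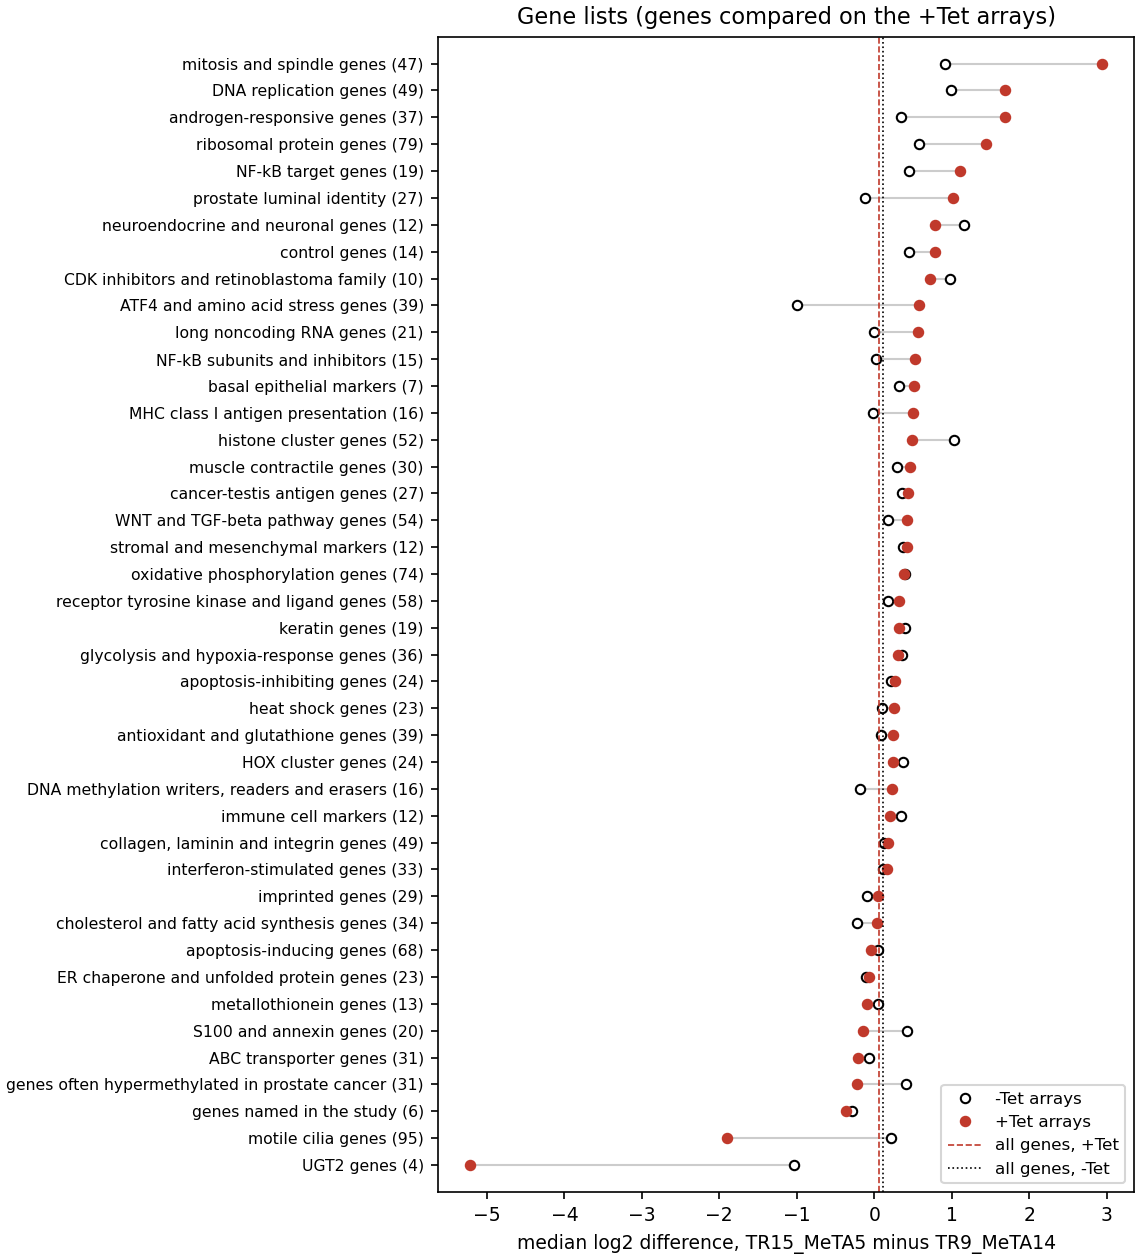
Median log2 difference, TR15_MeTA5 minus TR9_MeTA14, of each gene list on the induced arrays (red) and on the untreated arrays (open), with the medians over all genes as vertical lines and the number of genes compared in brackets. The mitosis list is at 2.94 with and 0.92 without tetracycline, and the motile cilia list is at -1.90 and 0.22.

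NFκB target genes were higher in induced TR15_MeTA5 as scaled here, a direction that 2 other settings weakened. The fusion protein carries the activation domain of NFκB, not its DNA-binding domain. Of 19 targets compared, 11 were at least 2-fold higher in induced TR15_MeTA5 and 0 lower, with a median of 1.11 (0.45 without tetracycline). With spike-in scaling 2 of 21 were at least 2-fold higher and 3 lower, and with normexp background correction, a model of signal plus noise, and quantile normalization 2 of 20 were higher and 0 lower.

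SAA1, an acute-phase apolipoprotein, was detected on 1 array, induced TR15_MeTA5 (92.7), at least 5.17-fold above induced TR9_MeTA14 (3.65). ICAM1, a leukocyte adhesion receptor, was not well above background in either untreated line (7.64 in TR9_MeTA14 and 14.6 in TR15_MeTA5) and read 101 and 424 in the induced lines, a 4.2-fold difference. NFKBIA, the inhibitor that NFκB induces against itself, read 5497 and 3728 in TR9_MeTA14 and 9824 and 12522 in TR15_MeTA5, a 3.36-fold difference with tetracycline. Induced TR15_MeTA5 gave the highest of the 4 values for each of these genes, and NFKBIA fell within 2-fold with spike-in scaling.

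CXCL6, a neutrophil chemokine, was likewise detected in induced TR15_MeTA5 alone (54.2), at least 3.02-fold higher, a bound that also fell within 2-fold with spike-in scaling. TNFAIP2, a TNF-induced gene, read 1122 and 40954 in TR9_MeTA14 without and with tetracycline and 1378 and 26397 in TR15_MeTA5, with induced TR9_MeTA14 the higher (-0.63 log2). The lowest target was CXCL5 at -0.66. The kappaB site occurred in the promoter windows of 16 of 31 targets (51.6%), against 2.6% of all genes in the table.

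Of 15 NFκB subunits and inhibitors, 3 (20%) were at least 2-fold higher and 1 (6.67%) lower in induced TR15_MeTA5, against 14.2% and 10.4% of all genes. The counts were 0 and 5 with spike-in scaling, and the median as scaled here was 0.52. RELB, a subunit, read 574 and 2418 in TR9_MeTA14 and 881 and 4412 in TR15_MeTA5, and REL was lower in induced TR15_MeTA5 (-1.18 log2). No probe was labelled as reading the fusion gene. RELA and MBD2 belong to the families its parts come from, and whether their probes also read the fusion RNA was not tested. RELA, the p65 subunit, read 1069, 5998, 1277 and 3845, with a log2 difference of -0.64 between the induced lines. MBD2, a methyl-CpG binding protein, read 8239, 3397, 10084 and 7170, with a difference of 1.08 by 1 of its 2 probes, the other being within 2-fold.

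Of the genes that the study named, PYCARD, TNFRSF25, HRK, BIK and GSTP1 lay within 2-fold between the induced lines as scaled here. PYCARD, the adaptor protein of inflammasomes, was not well above background in either untreated line (13 in TR9_MeTA14 and 27.6 in TR15_MeTA5) and read 2278 in induced TR9_MeTA14 and 1791 in induced TR15_MeTA5, so TR9_MeTA14 was 1.27-fold higher. TNFRSF25, a death receptor, read 496 and 8714 in TR9_MeTA14 and 455 and 5595 in TR15_MeTA5, a 1.56-fold difference with tetracycline. Its mean over 2 probes gave a log2 difference of -1.22 in place of -0.64. With spike-in scaling PYCARD (-1.13), TNFRSF25 (-1.42), HRK and BIK passed 2-fold toward TR9_MeTA14, so 4 of the 6 named genes were lower and 0 higher.

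HRK, a BH3-only protein, read 1675 and 1281 in the induced lines, a 1.31-fold difference, and BIK, another, read 7824 and 5453, a 1.43-fold difference. CIDEA, a lipid-droplet protein linked to DNA fragmentation, was detected on the induced TR15_MeTA5 array only (48), at least 2.68-fold higher, a bound that did not reach 2-fold with spike-in scaling. GSTP1, a glutathione transferase silenced by methylation in most prostate cancers, read 36.2 and 666 in TR9_MeTA14 and 1040 in induced TR15_MeTA5, and was not well above background in untreated TR15_MeTA5 (48.8). It was 1.56-fold higher in induced TR15_MeTA5, and the direction turned with spike-in scaling (-0.14 log2).

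Of 68 apoptosis-inducing genes compared, 12 (17.6%) were at least 2-fold higher in induced TR15_MeTA5 and 5 (7.35%) lower, with a median of -0.04, against 14.2% and 10.4% of all genes. The split turned with spike-in scaling, to 3 higher and 27 lower of 69. Those higher were led by PMAIP1 (NOXA), a BH3-only protein, which read 1504 and 65.1 in TR9_MeTA14 and 960 and 548 in TR15_MeTA5, a log2 difference of 3.07 with tetracycline. STK17B, a death-associated kinase, followed at 2.37, FAS, a death receptor, at 2.07, and BBC3 (PUMA) at 1.69, which fell within 2-fold with spike-in scaling. CARD9, a caspase-recruitment adaptor, was the lowest at -2.18 (7647 against 1688), with BMF at -2.0, BOK at -1.52, CASP9, the initiator caspase of the mitochondrial route, at -1.33, and TNFSF12 at -1.08. Of 24 apoptosis-inhibiting genes, 5 (20.8%) were higher and 1 (4.17%) lower (2 and 7 with spike-in scaling), with a median of 0.26.

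Of 31 genes often hypermethylated in prostate cancer, 3 (9.68%) were at least 2-fold higher in induced TR15_MeTA5 and 4 (12.9%) lower, shares near those of all genes (14.2% and 10.4%), with a median of -0.23 (0.41 without tetracycline). The counts were 1 higher and 16 lower with spike-in scaling, and 14 higher and 5 lower of 46 when genes near background were kept. DKK3, a secreted WNT antagonist, was the highest at 2.39 log2, and HIC1, a transcriptional repressor, was among the lower at -1.42. Among 16 DNA methylation writers, readers and erasers, 3 (18.75%) were higher and 0 lower (1 and 6 with spike-in scaling), with a median of 0.23. HELLS, a chromatin remodeller needed for DNA methylation, differed by 2.25.

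The largest measured differences toward TR15_MeTA5 were those of LDHB, H3C15, ACTG2, CDCA7 and LAMA3. LDHB, the heart-type subunit of lactate dehydrogenase, read 2104 and 209 in TR9_MeTA14 without and with tetracycline, and 21595 and 15701 in TR15_MeTA5, a 75.2-fold difference between the induced arrays. H3C15, a replication-dependent histone gene, read 18677, 2328, 102656 and 71641, a 30.8-fold difference. Both genes were also higher in untreated TR15_MeTA5 than in untreated TR9_MeTA14. H3 histone genes are near-identical in their coding parts, so the probe may read several.

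ACTG2, smooth muscle actin, read 56.8, 30.6, 310 and 856 and differed 27.9-fold. CDCA7, a MYC and E2F target, differed 26.1-fold (39.5 against 1029) by 1 of its 2 probes, the other being within 2-fold. LAMA3, a laminin chain, differed 21.9-fold (127 against 2777). TRH, the precursor of thyrotropin-releasing hormone, was not well above background in the untreated lines (5.1 in TR9_MeTA14 and 8.5 in TR15_MeTA5) and read 365 and 7792 in the induced lines, a 21.3-fold difference. The others of the first 10 were MAF, EXO1 (4.35 log2), P2RY1 (4.33) and PTCRA (4.3).

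Toward TR9_MeTA14, the first 10 held the 4 UGT2B genes and DYNLT4 beside SYT4, FAM13A, GALR3, PALMD and H2AJ. SYT4, a synaptotagmin of vesicles, read 60573 and 65154 in TR9_MeTA14 without and with tetracycline and 1145 and 1775 in TR15_MeTA5, a 36.7-fold difference with tetracycline and one present without it. GALR3, a galanin receptor, read 65247, 48134, 84010 and 1845, a 26.1-fold difference in which 1 array, induced TR15_MeTA5, was low. H2AJ, a histone variant, read 18770, 14748, 306 and 702, a 21-fold difference shown by 1 of its 2 probes. FAM13A differed 28-fold and PALMD by -4.54 log2.

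Some genes were detected in 1 induced line only. TFPI, the inhibitor of the tissue factor pathway of clotting, read 4660 and 6000 in TR9_MeTA14 and was not well above background in TR15_MeTA5 (32.7 and 39.3), at least 153-fold higher in induced TR9_MeTA14. MAP2, a neuronal microtubule-binding protein, was at least 46.2-fold higher there (1639, against 8.89 not well above background), and PASD1, a cancer-testis antigen, at least 41-fold. In TR9_MeTA14 the levels of TFPI and PASD1 (1400 without and 1455 with tetracycline) were close, whereas MAP2 read 215 without it.

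Toward TR15_MeTA5, ANKRD29 was at least 45.2-fold higher and read 249, 8.4, 2217 and 809 on the 4 arrays. FAT1, an atypical cadherin, read 63.9, 13.6, 983 and 664 and was at least 37-fold higher. FN1, fibronectin, read 76.3, 16.6, 743 and 476 and was at least 26.6-fold higher. These genes were well above background in TR9_MeTA14 without tetracycline and not with it. FERMT1, an integrin activator, was at least 33.3-fold, MAP3K20 at least 28-fold and PTGER4, a prostaglandin receptor, at least 24.9-fold higher. The largest bounds in the other direction also included LRRC74B (at least 31.8-fold) and ZFHX4 (at least 28.3-fold).

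Both the counts and the median signs of the lists that follow depended on scaling. Of the 33 lists with a median above 0 as scaled here, 25 were below 0 with spike-in scaling. Extracellular and contractile genes went both ways. Of 49 collagen, laminin and integrin genes, 12 (24.5%) were at least 2-fold higher in induced TR15_MeTA5 and 9 (18.4%) lower. With spike-in scaling 6 were higher and 20 lower, and the median as scaled here was 0.18. Without tetracycline, 8 of the 12 and 6 of the 9 were also past 2-fold the same way. LAMB3 (3.0 log2) and LAMC1 (2.55), laminin chains, were higher along with LAMA3, while COL18A1, a basement membrane collagen, was at -2.65 and COL5A2, a fibrillar collagen, was at least 13.5-fold higher in induced TR9_MeTA14. Of 30 muscle contractile genes, 9 (30%) were higher and 2 (6.67%) lower (4 and 5 with spike-in scaling), with a median of 0.46. Actins led them, with ACTA2 at 4.09 and ACTA1 at 3.2, and MYH7, a myosin heavy chain, stood at 1.85. MYL9, a myosin light chain, was at -1.86. Actin genes are alike in sequence, so these probes may share signal.

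Growth factor pathways differed in both directions. Of 54 WNT and TGF-beta pathway genes, 18 were at least 2-fold higher in induced TR15_MeTA5 and 7 lower (12 and 15 with spike-in scaling), with a median of 0.43. The secreted ligands BMP7 (3.61 log2), WNT11 (3.45) and BMP6 (2.84) and the receptor FZD4 (2.68) were the highest. Lower were RNF43, a ubiquitin ligase that removes WNT receptors (-2.05), NKD2, a WNT antagonist (-1.62), the ligand WNT7B (-1.58) and INHBB, an inhibin subunit (-1.53).

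Of 58 receptor tyrosine kinase and ligand genes, 21 (36.2%) were at least 2-fold higher and 7 (12.1%) lower, with a median of 0.33. The split turned with spike-in scaling (10 higher and 20 lower). The ligands NRG1 (at least 8.48-fold) and FGF8 (2.55 log2) and the binding protein IGFBP2 (2.39) were higher, and the receptors FGFR1 (-2.63, by 1 of its 2 probes) and MST1R (-1.78) lower. Among 24 HOX cluster genes, which set position along the body axis, 7 (29.2%) were higher and 0 lower. These counts were 3 and 6 with spike-in scaling, and the median as scaled here was 0.24. HOXB9 (3.26), HOXB8 (3.14) and HOXB5 (2.54), neighbours in 1 cluster, were among the higher.

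More histone genes were higher than lower in TR15_MeTA5, with or without tetracycline. Of 52 compared, 17 (32.7%) were at least 2-fold higher and 2 (3.85%) lower with tetracycline (9 and 6 with spike-in scaling), at a median of 0.49. Without tetracycline 28 were higher, at a median of 1.03. H1-5 (3.62 log2), H2AC20 (3.35), H3C2 (3.27) and H4C13 (3.04) were high in induced TR15_MeTA5. Of 10 CDK inhibitors and retinoblastoma family genes, 3 (30%) were higher and 0 lower (2 and 0 with spike-in scaling), with a median of 0.71. All 3 were also at least 2-fold higher without tetracycline. There 5 of the 10 were higher and 1 lower, at a median of 0.98. CDKN3, a phosphatase of CDKs, was the highest between the induced arrays at 3.42.

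Several long noncoding RNAs that host small nucleolar RNAs were higher in induced TR15_MeTA5. Of 21 long noncoding RNA genes, 9 (42.9%) were at least 2-fold higher and 1 (4.76%) lower (7 and 4 with spike-in scaling), with a median of 0.57. GAS5 (3.0 log2), SNHG5 (2.79) and ZFAS1 (2.17), all snoRNA hosts, were the top of them, with EPB41L4A-AS1 at 2.16, and CRNDE was the lower one (-2.29).

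Stress and metabolic genes were mixed. ATF4 controls the response to amino acid shortage. Of 39 of its targets and related genes, 9 (23.1%) were at least 2-fold higher in induced TR15_MeTA5 and 1 (2.56%) lower. Over all genes the shares were 14.2% and 10.4%. The list median was 0.58, and with spike-in scaling the split turned to 2 higher and 6 lower. Without tetracycline 0 of 40 were higher and 20 lower, with a median of -1.0. SLC7A11, the cystine transporter, read 5967 and 177 in TR9_MeTA14 without and with tetracycline and 1130 and 448 in TR15_MeTA5, so its log2 difference between the lines was -2.4 without and 1.34 with tetracycline.

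STC2, a secreted glycoprotein, stood at -1.4 log2 without and 1.88 with tetracycline, and ATF3, a stress transcription factor, at -1.16 and 1.87 (past 2-fold by 3 of its 4 probes). CHAC1, which degrades glutathione, was at -2.76 without and -0.40 with it, and DDIT3 (CHOP) at -1.87 and -0.03. SLC7A5, a leucine transporter, was the gene lower in induced TR15_MeTA5 (-1.21). PSAT1, of serine synthesis, was higher at 1.78.

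Of 36 glycolysis and hypoxia-response genes, 13 (36.1%) were higher and 3 (8.33%) lower, against 14.2% and 10.4% of all genes. The split turned with spike-in scaling (4 higher and 12 lower). The list median was 0.31, with LDHA (1.8 log2) and MXI1 (2.26) among the higher. Of 74 oxidative phosphorylation genes, 3 (4.05%) were higher and 0 lower (0 and 7 with spike-in scaling), below the shares of all genes as scaled here. Their median was 0.39 with tetracycline and 0.40 without it. Of 34 cholesterol and fatty acid synthesis genes 5 (14.7%) were higher and 4 (11.8%) lower, near the shares of all genes (2 and 9 with spike-in scaling), with a median of 0.04, from FADS1, a desaturase, at 1.9 to LSS, lanosterol synthase, at -1.8. Among 39 antioxidant and glutathione genes 7 (17.9%) were higher and 3 (7.69%) lower (3 and 13 with spike-in scaling), with PRDX6, a peroxiredoxin, at 2.31 and NQO1, a quinone reductase, at -1.85.

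Heat shock genes differed about as often as all genes. Of 23, 3 were higher and 3 lower, 13% each (1 and 8 with spike-in scaling), with HSPA2 at 2.12 log2 and HSPA1A, which has a near-identical copy, at -1.43, and of 23 ER chaperone genes 1 was higher and 1 lower (0 and 6 with spike-in scaling). Of 13 metallothionein genes, metal-binding proteins whose probes may cross-read, 1 was higher (MT1M, 1.29) and 2 lower (MT1F, -2.86, and MT1G, -1.38), which became 0 and 4 with spike-in scaling.

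Genes of the interferon response went both ways. Of 33 interferon-stimulated genes, 7 (21.2%) were at least 2-fold higher in induced TR15_MeTA5 and 8 (24.2%) lower, with a median of 0.17. The counts were 3 and 15 with spike-in scaling. Among the 29 above background on both induced arrays, 3 were higher and 8 lower, with a median of -0.40. HERC5, a ubiquitin ligase, was at least 8.09-fold higher and OAS3, an RNA sensor, was at 2.43 log2, while IFIT1, which binds viral RNA, was at -2.94, BST2 (tetherin) at -2.69, IRF9 at -1.5 and IRF7 at -1.28. Of 16 genes of class I antigen presentation, 4 (25%) were higher and 0 lower (1 and 2 with spike-in scaling), with a median of 0.51.

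Of 31 ABC transporter genes, 5 (16.1%) were higher and 8 (25.8%) lower (1 and 15 with spike-in scaling), with a median of -0.21. TAP2, a peptide transporter (2.03 log2), and ABCC4 (1.77) were among the higher, and ABCG1, a cholesterol exporter (-2.82), and ABCA7 (-2.04) among the lower. Of 20 S100 and annexin genes, 5 (25%) were higher and 4 (20%) lower (1 and 9 with spike-in scaling), with a median of -0.14, S100P at 2.04 and S100A6 at -1.54. Of 19 keratin genes, 3 (15.8%) were higher and 1 (5.26%) lower, against 14.2% and 10.4% of all genes (2 and 5 with spike-in scaling).

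Germline and imprinted genes, many of them silenced by methylation in somatic cells, were read in the same way. Of 27 cancer-testis antigen genes, 7 (25.9%) were at least 2-fold higher in induced TR15_MeTA5 and 3 (11.1%) lower (2 and 5 with spike-in scaling), with a median of 0.44. MAGEB3 was at least 9.93-fold higher and PAGE1 was at 3.17 log2, while MAGEA10 was at -4.37. Of 29 imprinted genes, 4 (13.8%) were higher and 3 (10.3%) lower, the shares of all genes being 14.2% and 10.4% (2 and 11 with spike-in scaling), with the growth factor IGF2 at 2.21 and MAGEL2 at -3.55.

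Markers of cell types other than luminal cells were given the same reading. Of 7 basal epithelial markers compared, 3 were at least 2-fold higher in induced TR15_MeTA5 and 0 lower (2 and 1 with spike-in scaling), with NGFR, a neurotrophin receptor, at least 14.3-fold higher. Summed signals below are over all markers of a list on the array, detected or not. For the 13 basal markers the sum was 3080 in induced TR9_MeTA14 and 3074 in induced TR15_MeTA5, of which ITGB4 gave 2421 and 1475. Of 12 stromal and mesenchymal markers compared, 5 were higher and 1 lower (4 and 1 with spike-in scaling), with summed signals over all 21 of 7302 and 9781. FN1, ACTA2, TWIST1 (2.98 log2) and THY1 (2.56) were among the higher, and COL1A1, a collagen of fibroblasts and bone, was at -1.85. Of 12 immune cell markers compared, 0 were at least 2-fold higher or lower (0 and 3 with spike-in scaling), with sums over all 16 of 27859 and 31438. The luminal sum, over all 29 genes, was 305335 in induced TR9_MeTA14 and 596384 in induced TR15_MeTA5.

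Of 12 neuroendocrine and neuronal genes, 5 were higher and 3 lower in induced TR15_MeTA5 (2 and 4 with spike-in scaling), with a median of 0.79. CHGA, chromogranin A of secretory granules, was at 2.63 log2 and NEFH, a neurofilament, at 1.16. SYT4 was the lowest, and DDC, which makes dopamine and serotonin, was at -1.33 with and 2.25 without tetracycline.

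The untreated lines differed less. Of 13792 genes compared without tetracycline, 1130 (8.19%) were at least 2-fold higher in TR15_MeTA5 and 715 (5.18%) lower, and the SD of the measured log2 differences was 0.67, against 0.95 with tetracycline. Over 12696 genes measured in both comparisons, which share no array, the log2 differences had a Pearson r of 0.45 and a Spearman rho of 0.44, given as a description across genes, which are not independent.

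Of the 2078 genes higher in induced TR15_MeTA5, 454 were also higher in untreated TR15_MeTA5, which is 21.8% of the 2078 and 40.2% of the 1130. A further 1240 (59.7%) had a difference or bound under 2-fold without tetracycline and 347 had no fold there. Of the 1515 genes lower in induced TR15_MeTA5, 293 were also lower without tetracycline, 19.3% of the 1515 and 41.0% of the 715. Another 952 (62.8%) had a difference or bound under 2-fold there. LDHB, MAF, SYT4 and TFPI differed in both comparisons. Of the 44 mitosis genes higher in induced TR15_MeTA5, 19 were also at least 2-fold higher without tetracycline, and of the 26 androgen-responsive genes 8 were. Of the 70 cilia genes lower in induced TR15_MeTA5, 0 were at least 2-fold lower without tetracycline, and 28 had no fold there.

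**Figure D4:**
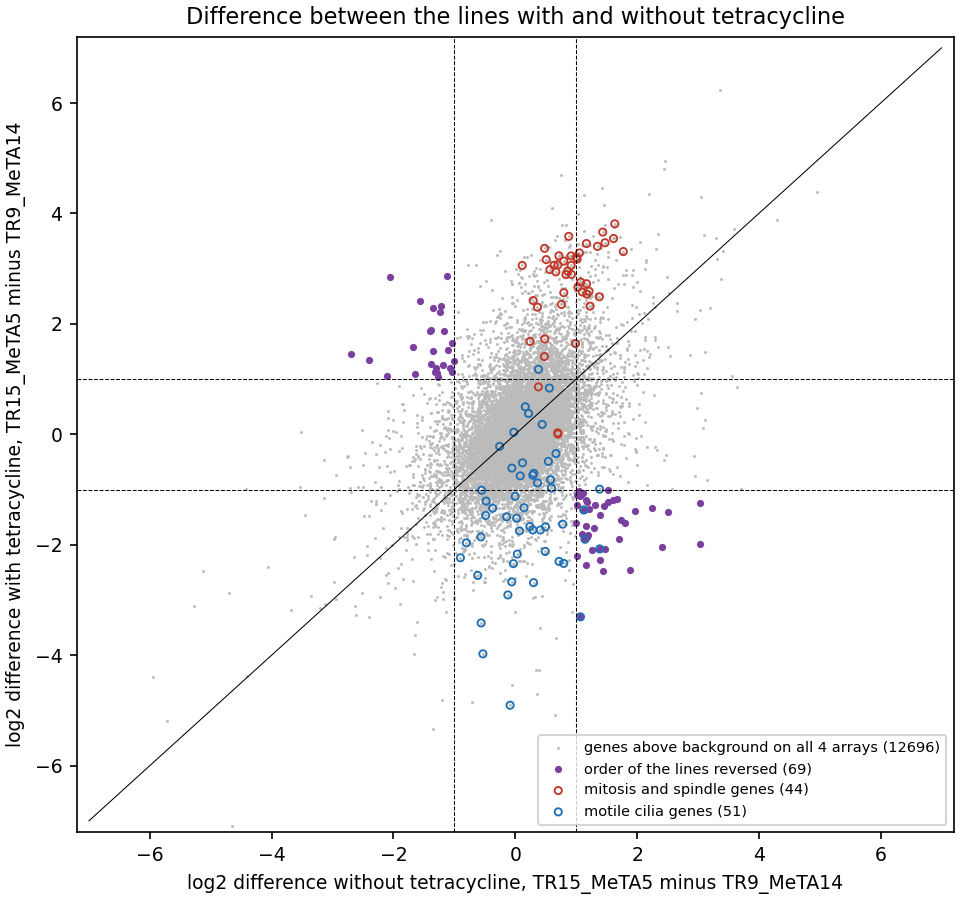
Each point is 1 gene above background on all 4 arrays, plotted by its log2 difference between the lines without tetracycline (x axis) and with it (y axis). The cloud is taller than it is wide (SD 0.95 against 0.67 over the genes measured in each comparison), and the genes in purple are those in which the order of the lines turned.

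In 96 genes the order of the lines was turned by at least 2-fold each way, 37 of them higher in induced TR15_MeTA5 and 59 lower, and 69 of the 96 were above background on all 4 arrays. ANXA1, an anti-inflammatory annexin, was not well above background in untreated TR9_MeTA14 (24.1), read 170 in untreated TR15_MeTA5, and with tetracycline read 13279 in TR9_MeTA14 and 1918 in TR15_MeTA5. ACP5, an acid phosphatase, read 168 and 40328 in TR9_MeTA14 without and with tetracycline and 1386 and 10205 in TR15_MeTA5. DIO3, which inactivates thyroid hormone, went the other way, at 720 and 46.6 in TR9_MeTA14 and 173 and 338 in TR15_MeTA5. FOXJ1 was also in this group.

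A gene's other probes gave a check on single probes. Among the genes past 2-fold, 805 further probes of 672 genes were above background on both induced arrays, and 759 of them (94.3%) differed in the same direction as the probe used. Of these probes, 524 (65.1%) were past 2-fold the same way and 4 the opposite way. By level, the median difference was 0.13 in the 4580 dimmest measured genes, -0.03 in the next 4578 and 0.15 in the 4580 brightest.

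**Figure D5:**
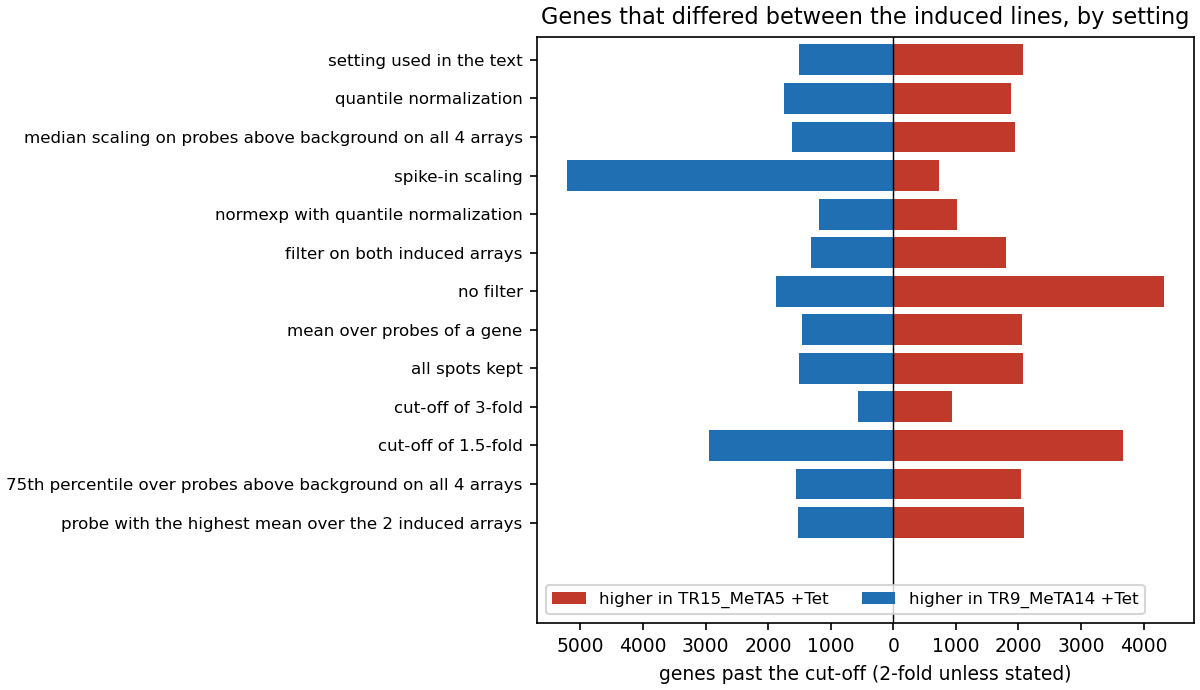
Number of genes at least 2-fold higher in induced TR15_MeTA5 (red, to the right) and in induced TR9_MeTA14 (blue, to the left) under each processing setting, with the settings that use another cut-off named. The split turns toward TR9_MeTA14 with spike-in scaling (731 against 5214) and toward TR15_MeTA5 with no filter (4324 against 1877).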

How the data were processed

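Total RNA from 4 cultures of established cell lines was labelled with 1 dye and hybridised to 1-colour oligonucleotide arrays. The authors extracted features with Agilent Feature Extraction, version 10.7.3.1 per the file headers, whereas the submitters' processing notes name 9.5.1. The deposited values used were the processed signal intensity of each spot, already background-corrected by that software, and its flags for signal well above background and outliers. The deposited series table held the same values on all 44495 rows, and 0 columns of per-sample values were left unmapped.

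Control and outlier spots were left out and spots of one probe averaged. The log2 signal less the 75th percentile of its array was compared, TR15_MeTA5 minus TR9_MeTA14. Probes were named through unversioned accessions in RefSeq genes of GRCh38.p14, which gave 1 gene for 25419 of 34127 probes (74.5%) and 19480 genes in all. A gene was read by its probe with the highest mean signal over the 4 arrays. A difference or bound of at least 2-fold, the cut-off of the methods, was counted. No p-value was computed, since each group had 1 array. Depth is not defined for arrays, and their number limits the precision.

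The 40 gene lists and the named genes were chosen with earlier results of these data known, and 2 lists (motile cilia and UGT2 genes) were added after the values had been seen. Named were the 10 largest measured differences and the 6 largest bounds in each direction, the genes of the study, up to 4 genes a direction in each list, control genes and the 5 largest turned orders, with KLK3, FOXA1 and HOXB13 at any size. Some genes that the rule names are not reported here. Others named within a list (among them RFX2, RFX3, RFX1, FOXM1, CDK1, MKI67, RELA and MBD2) were chosen after their values were seen.

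Alternatives were another scaling (quantile, median, spike-in RNA, or the percentile over probes detected on all 4 arrays), normexp background correction of the median pixel intensities with an offset of 50 and quantile normalization (limma 3.58.1 in R 4.3.3), other filters and cut-offs, and other rules for probes. The counting was tested on simulated data. Python 3.11.15, numpy 2.4.6, pandas 2.3.3 and matplotlib 3.10.9 were used. Promoter windows (250 bases before to 50 after the start) came from RefSeq, GRCh38.p14. A planned comparison of promoter CpG counts was void, since 77.9% of the genes higher and 76.2% of those lower in TR15_MeTA5 had a window, under the 80% needed.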

Additional observations from a re-analysis of the deposited data

Results flagged for a closer look

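The order of the lines was turned in 96 genes, which were at least 2-fold higher in one line without tetracycline and at least 2-fold higher in the other line with it. The 5 with the largest sum of sizes are given by their log2 difference between the induced arrays, TR15_MeTA5 minus TR9_MeTA14: ANXA1 at -2.79, LDLRAD1 at -3.76 (a bound, with induced TR15_MeTA5 not well above background), ACP5 at -1.98, FOXJ1 at -2.50 and DIO3 at 2.86. With 1 array a group the difference between the comparisons was not tested.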

How the results depend on the processing

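No paired analysis was possible because each line had 1 array with and 1 without tetracycline and all 4 labels carry the same experiment number, so no group had a further replicate to pair or to leave out. The number of genes at least 2-fold higher in induced TR15_MeTA5 (2078) became 731 with spike-in scaling, 1011 with normexp and quantile normalization and 4324 with no filter on dim probes. At other cut-offs it was 3673 (1.5-fold) and 945 (3-fold). The number lower (1515) became 5214 with spike-in scaling, 2953 at 1.5-fold and 572 at 3-fold. Under the other alternatives run, both counts were within 1.5 times the values in the text. The median of all genes (0.07) was -0.69 with spike-in scaling, -0.04 with normexp and 0.22 with no filter, and the list medians below are to be read against these.

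The mitosis median (2.94) was 2.13 with normexp and 2.16 with spike-in scaling. The androgen-response median (1.68) was 1.5 with the mean over probes, 1.21 with normexp, 1.51 with quantile normalization and 0.90 with spike-in scaling. The ribosomal protein median (1.44) was 0.65 with each of normexp, quantile normalization and spike-in scaling. The motile cilia median (-1.90) was -1.68 with the filter on both arrays, -1.73 with the mean over probes, -1.48 with no filter, -1.28 with normexp and -2.52 with spike-in scaling. Against the median of all genes, spike-in scaling gave 2.84 for mitosis, 1.59 for androgen response, 1.34 for ribosomal proteins and -1.83 for motile cilia. H2BC21, a histone gene whose probes disagree, was at -1.01 and turned to 0.0342 with the mean over probes. The causes were not tested. Scaling by the percentile over commonly detected probes and choosing probes on the 2 induced arrays were added after seeing the data. The promoter CpG comparison was not run under any alternative, being void. Dim genes rest on the lowest detected signal of an array, so their bounds, and not their size, are known.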
